A study of Mus musculus with 4 samples.

Results

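The tumour necrosis factor (TNF) superfamily ligands and receptors were followed in mouse T cells that lacked the microRNA miR-155. Members were all genes whose name on the array begins with Tnfsf or Tnfrsf, together with Tnf, Lta, Ltb, Ltbr, Fas, Fasl, Cd27, Cd70, Cd40 and Cd40lg. This gave 40 genes, 16 ligands and 24 receptors, measured by 51 of the 55681 probes on the array. The arrays held 27528 gene names in all. CD4+ T cells from miR-155-/- (KO) and miR-155+/+ (WT) mice were cultured in RPMI with serum, anti-CD3e, anti-CD28, TGFb and IL-6, conditions that drive Th17 differentiation. Cells of both genotypes carried an IL-17F RFP reporter and were sorted as CD4+ RFP+, so only cells with reporter signal were profiled. Total RNA of 2 KO and 2 WT samples was labelled with Cy3 and hybridised to 1 array each. The design text calls them biological replicates, but the animal or culture behind each array is not labelled, so the p-values reflect sample-to-sample spread that may be partly technical. Neither age nor sex of the mice was given in the sources used here.

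The ligands of this superfamily are mostly trimeric proteins of the cell surface, many of which can be shed. They cluster receptors on the same or a neighbouring cell. One branch of receptors carries a cytoplasmic death domain and can start caspase-dependent apoptosis, and the other recruits TRAF adaptors and activates NF-kappaB and MAP kinases. On activated CD4+ T cells several receptors, among them OX40, 4-1BB, GITR, CD27 and CD30, act as costimulators, and T cells themselves make TNF, lymphotoxin, CD40 ligand and Fas ligand.

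The deleted regulator is shown first because its seed is the stretch that pairs with target messages. The mature mouse miR-155-5p is at chr16:84714143-84714165 on the plus strand in RefSeq on GRCm38.p6, with its seed, bases 2 to 8, in capitals.
mmu-miR-155-5p: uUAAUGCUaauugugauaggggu
The exact match to that seed, AGCATTA, was searched on the sense strand of the array's probes. It occurred in 1 of the 51 member probes (1.96%) and in 203 of all 55681 probes (0.365%). That probe reads Tnfsf9, the gene of 4-1BB ligand on mm9 chromosome 17, and 30 of its 60 bases around the match, in capitals, are as follows.
Tnfsf9 probe: attcactagatAGCATTAgtaaactgctgg
A probe covers only a small stretch of a message, and no match says only that these letters are absent from that stretch. Tnfsf9 itself had log2 signals of 1.18 and 1.09 in KO cells, against 1.18 and 1.51 in WT cells. The difference was -0.21 ± 0.16 (SE), with an unadjusted p of 0.265 by limma across all genes, and 1 WT array was level with a KO array.

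Values throughout are log2 processed signals minus the array's 75th percentile, so 0 is the level of a probe at that percentile, and differences are KO minus WT. Testing required a probe well above background in both KO or both WT samples, which left 19776 genes. Of the members 37 were tested, and each of these was well above background on all 4 arrays. The exceptions were Tnfrsf17 (the B cell maturation antigen BCMA) and Tnfsf18 (GITR ligand), well above background on 0 arrays, and Tnfrsf21 (death receptor 6), well above background on 1 KO array and on 0 WT arrays.

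No member passed limma's Benjamini-Hochberg adjusted p of 0.05 over all genes, nor did any other gene (0.0% called), the smallest adjusted p being 0.266. An unadjusted p under 0.05 was found for 12 members, 7 higher and 5 lower in KO cells, which is 32.4% of the 37 tested. Over all genes 11.4% met that criterion, 7.19% higher and 4.16% lower. With median scaling the member counts were 5 higher and 10 lower, and 15.4% of all genes had an unadjusted p under 0.05. The share of higher genes among those was 24.5%, against 63.3% in the reported setting. The count of 12 members fell in each fit that left out an array, and so left 1 array in a group. It fell most without WT replicate 2 and without KO replicate 1, where the share of members came closer to that of all genes. The KO and WT values did not overlap for 24 members (64.9%), 12 in each direction, and for 47.7% of all genes (25.2% higher and 22.5% lower in KO cells). A difference of at least 2-fold was seen in 2 members, Ltbr and Tnfsf10, and in 4.14% of all genes. The median difference of the members was 0.041, against 0.015 over all genes, and the median size of the difference was 0.34, against 0.18. An exact permutation test of a single gene with 2 arrays a group cannot give a two-sided p below 0.333.

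**Figure D1:**
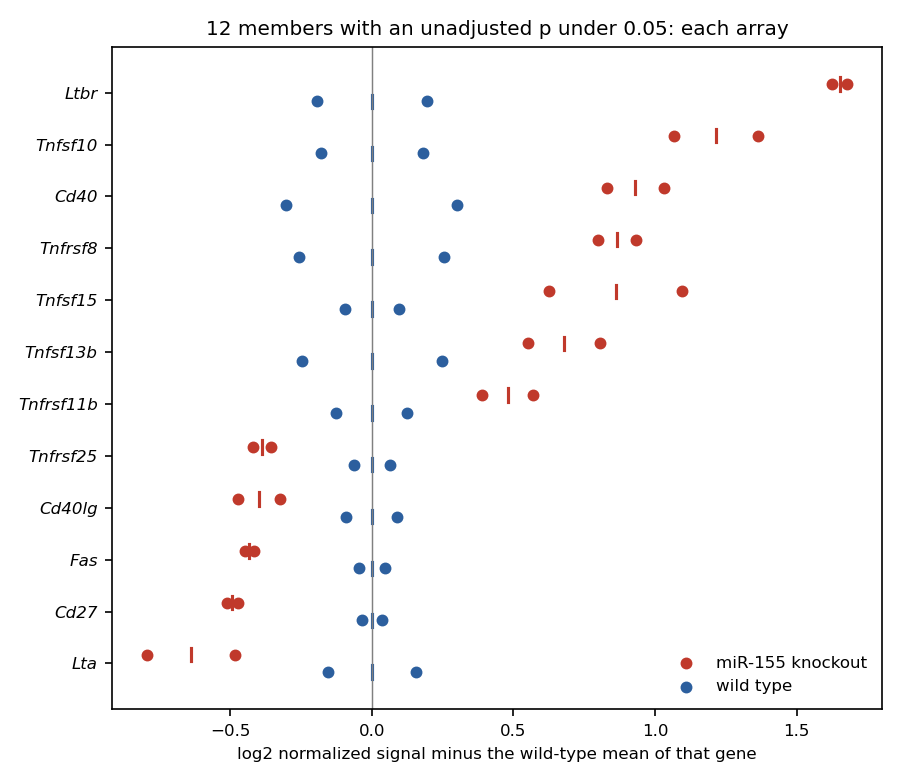
Log2 normalized signal of each array (x axis, minus the WT mean of that gene) for the 12 members with an unadjusted p under 0.05. Red points are the 2 KO arrays and blue points, in the lower row of each gene, the 2 WT arrays, with a tick at each mean. KO points lie on 1 side of both WT points for each of the 12 genes.

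Beside these values stand the measures of the arrays and of the sort. Per array, 63.5% to 69.8% of spots exceeded background by the scanner software's own call, and 0 spots were saturated. KO samples occupied row 2 of the slide and WT samples row 1, so the position on the slide and the genotype cannot be told apart. KO array 1 was less even than the others. Spatial detrending had been applied at 0.799% of its spots well above background, against 100% on each other array. In addition, 2 corner blocks of the arrays, which held spots of 4 member probes, were dim on some arrays. Il17f, the gene behind the sorted reporter, was at 1.52 and 1.92 in KO cells, against 3.68 and 3.78 in WT cells, which is a difference of -2.01 ± 0.18 (SE; limma adjusted p 0.266). miR-155 itself had no probe by name, and Mrpl39, a neighbour of its host gene, was at 1.42 and 1.65 in KO cells and at 2.66 and 2.73 in WT cells. In a bulk sample, fewer cells of a type and less RNA per cell cannot be told apart.

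The largest differences in the TNF and lymphotoxin branch were in a receptor and in one of its ligands, and they pointed in opposite directions. Ltbr encodes the lymphotoxin beta receptor, which signals through alternative NF-kappaB and is known for organising lymphoid tissue. Its signal was -1.17 and -1.12 in KO cells, against -2.61 and -2.99 in WT cells. Both KO arrays lay far above both WT arrays. The difference was 1.65 ± 0.18 (SE), a 3.14-fold higher signal, where the unadjusted p was 0.000628 and the limma adjusted p 0.266. Lta, lymphotoxin alpha, which forms a secreted trimer or joins lymphotoxin beta at the surface, was at 5.01 and 4.70 in KO cells, against 5.33 and 5.65 in WT cells. Its difference was -0.64 ± 0.19 (SE), with an unadjusted p of 0.0268. The Lta value of each array is a mean over 10 spots, whose SD on the log2 scale was between 0.029 and 0.060. That SD covers the reading of 1 array only, and arrays of the same genotype differed by more. Without WT replicate 2 the Lta difference was -0.48, with an unadjusted p of 0.112, and without KO replicate 2 it was -0.48 (unadjusted p of 0.0989).

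The other ligands of that branch did not separate. Tnf was at 1.97 and 1.75 in KO cells, against 1.97 and 2.51 in WT cells, and 1 WT array was level with the KO arrays. The difference was -0.38 ± 0.23 (SE), which had an unadjusted p of 0.176. Without WT replicate 2 it was -0.11, and without WT replicate 1 it was -0.65 (unadjusted p of 0.0414). Of its 10 spots 1 lay in a corner block. Ltb, which encodes the membrane anchor of the lymphotoxin heterotrimer, was at 7.11 and 6.81 in KO cells, against 6.91 and 7.53 in WT cells. Its difference of -0.26 ± 0.27 (SE) turned to 0.054 without WT replicate 2. Tnfsf14, the gene of LIGHT, has 1 probe, which lies in a corner block. It was at -1.57 and 3.31 in KO cells, against -0.81 and 2.54 in WT cells, so the arrays of 1 genotype differed by far more than the genotypes did, and no difference can be read from it.

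The TNF receptors differed little. Tnfrsf1a, the death-domain receptor TNFR1, was at 2.95 and 2.94 in KO cells, against 3.14 and 3.03 in WT cells. The difference was -0.14 ± 0.12 (SE), which had an unadjusted p of 0.290. Its second probe gave 0.080. Tnfrsf1b, which encodes the TRAF-binding receptor TNFR2, was at -0.12 and -0.10 in KO cells, against 0.04 and 0.18 in WT cells. Its difference was -0.22 ± 0.12 (SE), with an unadjusted p of 0.138. Both KO arrays were below both WT arrays for each of these receptors, by a small margin. Of the 8 tested members of the branch, an unadjusted p under 0.05 was reached by 1 higher and 1 lower member (25%, against 11.4% of all genes), and the median difference was -0.18.

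Among death-inducing members, an unadjusted p under 0.05 was reached by 2 ligands, both higher in KO cells, and by 2 receptors, both lower, out of 6 tested (66.7%, against 11.4% of all genes). Tnfsf10 encodes TRAIL, which triggers apoptosis through a death receptor. It was at 0.72 and 0.43 in KO cells, against -0.46 and -0.82 in WT cells. The difference was 1.21 ± 0.20 (SE), a 2.32-fold higher signal. Its unadjusted p was 0.00318 and its limma adjusted p 0.298. Its receptor gene Tnfrsf10b had a difference of -0.27 ± 0.12 (SE), with an unadjusted p of 0.0831. Tnfsf15, the gene of TL1A, was at -1.75 and -2.22 in KO cells, against -2.75 and -2.94 in WT cells. Its difference was 0.86 ± 0.21 (SE), with an unadjusted p of 0.0138. Its receptor DR3, encoded by Tnfrsf25 and costimulatory on T cells, was at 4.87 and 4.94 in KO cells, against 5.23 and 5.35 in WT cells. That difference was -0.39 ± 0.12 (SE), with an unadjusted p of 0.0325. In both genes the groups did not overlap.

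Fas, the death receptor that limits activated T cells, was at 3.22 and 3.26 in KO cells, against 3.72 and 3.63 in WT cells. The difference was -0.43 ± 0.12 (SE), a 1.35-fold lower signal, with an unadjusted p of 0.0199. Fasl, its ligand, was at -0.06 and -0.90 in KO cells, against -0.68 and -1.75 in WT cells. The Fasl groups overlapped, and its difference was 0.74 ± 0.49 (SE), with an unadjusted p of 0.201. It was 0.20 without WT replicate 2, 0.32 without KO replicate 1 and 1.27 without WT replicate 1 (unadjusted p of 0.0446).

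Of the 11 tested costimulatory members, an unadjusted p under 0.05 was reached by 2 that were higher (Tnfrsf8 and Cd40) and by 2 that were lower (Cd27 and Cd40lg, the second of which turned with normexp), which is 36.4%, against 11.4% of all genes. The median difference was -0.14. Tnfrsf8 encodes CD30, a receptor of activated lymphocytes. Its signal was 1.54 and 1.41 in KO cells, against 0.87 and 0.36 in WT cells. The difference was 0.87 ± 0.22 (SE), with an unadjusted p of 0.0149. Its ligand gene Tnfsf8 was at 2.44 and 1.69 in KO cells, against 1.77 and 1.36 in WT cells. That difference was 0.50 ± 0.32 (SE), and the groups overlapped (unadjusted p of 0.194). It was 0.12 without KO replicate 1 and 0.88 without KO replicate 2 (unadjusted p of 0.0351).

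Cd40, best known as the receptor through which antigen-presenting cells receive T cell help, was at 0.52 and 0.32 in KO cells, against -0.81 and -0.21 in WT cells. The difference was 0.93 ± 0.25 (SE), with an unadjusted p of 0.0188. Cd40lg, the ligand through which T cells give that help, was at -4.77 and -4.62 in KO cells, against -4.21 and -4.39 in WT cells. Its difference was -0.40 ± 0.14 (SE), which had an unadjusted p of 0.0439. With normexp background correction it was 0.12, so its direction depends on the background correction.

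Cd27, which supports survival of primed T cells, was lower on both of its probes. The brighter probe was at 2.10 and 2.06 in KO cells, against 2.54 and 2.61 in WT cells. The difference was -0.49 ± 0.12 (SE), whose unadjusted p was 0.0122 and limma adjusted p 0.336. The second probe was at 1.52 and 1.37 in KO cells, against 1.89 and 1.83 in WT cells, a difference of -0.41. The ligand gene Cd70 was at -4.61 and -3.71 in KO cells, against -3.45 and -3.40 in WT cells. Its difference was -0.74 ± 0.33 (SE), which had an unadjusted p of 0.0888. It was -0.071 with normexp and -0.29 without KO replicate 1.

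Unlike Cd27 and Tnfrsf8, the costimulatory receptor genes Tnfrsf4, Tnfrsf18 and Tnfrsf9 did not reach an unadjusted p of 0.05 in the reported setting. Tnfrsf4 (OX40) was at 7.90 and 7.81 in KO cells, against 7.62 and 7.63 in WT cells. Both KO arrays lay above both WT arrays. Its difference was 0.23 ± 0.12 (SE), with an unadjusted p of 0.119, and was 0.067 with median scaling. The unadjusted p was under 0.05 in 1 of 17 alternatives, at 0.0213 with an intensity trend in eBayes. Tnfrsf18 (GITR) was at 7.16 and 7.09 in KO cells, against 6.98 and 7.04 in WT cells. The groups did not overlap there either, and the difference of 0.12 ± 0.12 (SE) turned to -0.046 with median scaling, which moved the median of all genes to -0.15. Tnfrsf9 (4-1BB) was at 3.60 and 3.76 in KO cells, against 3.90 and 3.74 in WT cells. The difference was -0.14 ± 0.14 (SE) by this probe and 0.12 by its second probe. The OX40 ligand gene Tnfsf4 was at -2.76 and -2.31 in KO cells, against -2.16 and -2.37 in WT cells, a difference of -0.27 ± 0.21 (SE) with an unadjusted p of 0.269.

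In the group that sustains B cells and plasma cells, 1 of 3 tested members, the ligand, had an unadjusted p under 0.05 (33.3%, against 11.4% of all genes). Tnfsf13b encodes BAFF. It was at 0.98 and 0.73 in KO cells, against 0.42 and -0.07 in WT cells, so both KO arrays lay above both WT arrays. The difference was 0.68 ± 0.22 (SE), with an unadjusted p of 0.0372. Tnfrsf13b, the gene of the BAFF and APRIL receptor TACI, has 3 probes, all with lower values in KO cells. The brightest was at 3.27 and 4.26 in KO cells, against 4.70 and 4.78 in WT cells. It differed by -0.97 ± 0.36 (SE), with an unadjusted p of 0.0545, but lies in a corner block. With KO array 1 corrected by its fitted surface the difference was -0.32 (unadjusted p of 0.106). With the corner blocks left out, which brings in the second probe, it was -0.59 (unadjusted p of 0.00927). That second probe was at 1.08 and 0.81 in KO cells, against 1.44 and 1.57 in WT cells. Tnfrsf13c, the BAFF receptor gene, had a difference of -0.34 ± 0.21 (SE), and its second probe gave 0.24.

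The 5 members tied to bone and tissue remodelling had mean differences above 0, but the groups were apart for 2 of them, and 1 had an unadjusted p under 0.05 (20% of 5, against 11.4% of all genes). Tnfrsf11b encodes osteoprotegerin, the soluble decoy for RANK ligand. It was at -3.38 and -3.57 in KO cells, against -4.08 and -3.83 in WT cells. The difference was 0.48 ± 0.16 (SE), with an unadjusted p of 0.0353. That p was 0.0584 with median scaling and 0.105 with an intensity trend in eBayes. The probe was dim, below the median processed signal of each array. Before scaling it was at 42.8 and 40.3 in KO cells, against 33.6 and 43.0 in WT cells, so the groups overlapped there. RANK ligand itself, Tnfsf11, which on Th17 cells is known to promote osteoclast formation, was at -0.89 and -1.61 in KO cells, against -1.63 and -1.61 in WT cells. Only 1 KO array stood apart there, and the difference of 0.37 ± 0.27 (SE) was 0.012 without it. Over all genes 52.2% had a difference above 0.

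The remaining tested members, 10 genes, had differences between -0.34 and 0.28 and a lowest unadjusted p of 0.0831. Among them were the 4 decoy and orphan receptors Tnfrsf22, Tnfrsf23, Tnfrsf26 and Tnfrsf19, with differences of 0.14, 0.010, 0.041 and 0.066. In mouse, Tnfrsf22 and Tnfrsf23 encode receptors that bind TRAIL without a death domain.

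**Figure D2:**
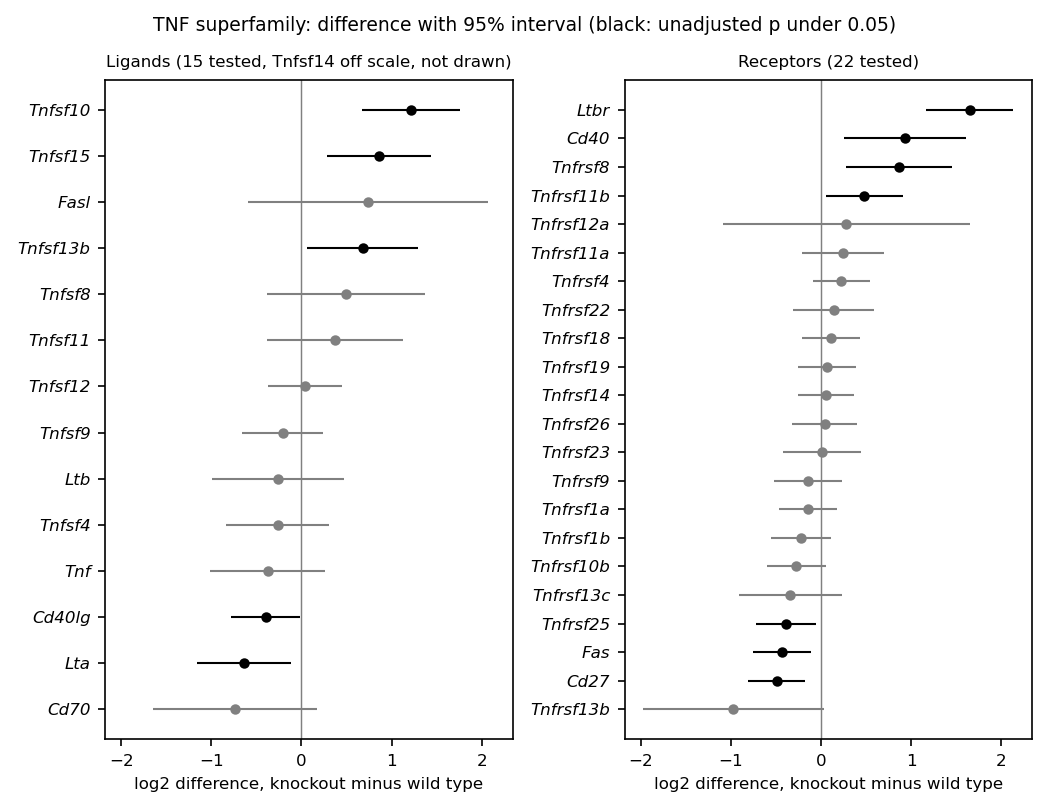
Log2 difference, KO minus WT (x axis), with its 95% interval from the limma fit, for ligands (left) and receptors (right), ordered by size. Black marks an unadjusted p under 0.05. Ltbr at 1.65 and Tnfsf10 at 1.21 lie farthest from 0, and Tnfsf14, whose interval runs from -5.66 to 5.67, is left out.

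Ligands and receptors were next set side by side as 23 known pairs, of which 21 were tested on both sides. The list is not complete, as TRAIL was paired with Tnfrsf10b only and not with Tnfrsf22 or Tnfrsf23. The counts below therefore depend on the pairs listed. The ligand and the receptor had differences of opposite sign in 9 pairs, were both lower in 6 and both higher in 6, including the 2 pairs of Tnfsf14, whose value cannot be read. Many of these signs rest on small differences. The direction of 5 pairs turned under an alternative setting, 5 pairs hold a receptor whose probes differ in sign, and over the settings 8 to 12 pairs were opposite. Of the 12 pairs with neither, 6 were opposite, 3 both lower and 3 both higher. In 3 pairs both partners had an unadjusted p under 0.05, and in the reported setting these were opposite. With normexp Cd40lg turned to 0.12 (unadjusted p of 0.247), so the pair of CD40 ligand and CD40 was both higher there. For lymphotoxin alpha and its receptor the differences were -0.64 for Lta and 1.65 for Ltbr, for CD40 ligand and CD40 they were -0.40 and 0.93, and for TL1A and DR3 they were 0.86 and -0.39. Lta and Ltbr meet only through the heterotrimer with lymphotoxin beta, whose gene was at -0.26. Several pairs share a member and are not independent.

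**Figure D3:**
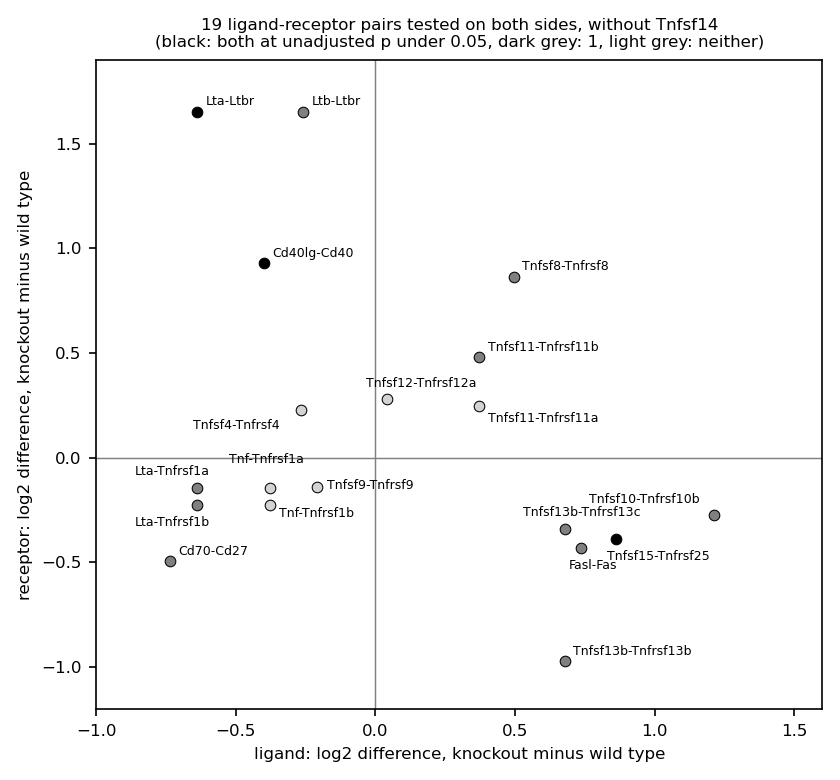
Difference of the ligand (x axis) and of its receptor (y axis), both log2 KO minus WT, for the 19 pairs tested on both sides without Tnfsf14. Black points have an unadjusted p under 0.05 for both partners, dark grey for 1 and light grey for neither. The black points Lta-Ltbr and Cd40lg-Cd40 lie upper left and Tnfsf15-Tnfrsf25 lower right.

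Many members are neighbours in the genome, and their probes formed 8 groups of 2 or 3 with steps of at most 200 kb on mm9, with 20 members in all. On chromosome 6, Cd27, Ltbr and Tnfrsf1a lie within 129 kb. The Ltbr probe is at chr6:125256614-125256673, between those of Cd27 at chr6:125183076-125183135 and Tnfrsf1a at chr6:125312376-125312435. Their differences were 1.65 for Ltbr in the middle, -0.49 for Cd27 and -0.14 for Tnfrsf1a. Cd27 was below WT on each of its probes, while the second Tnfrsf1a probe gave 0.080. On chromosome 17, Ltb, Tnf and Lta lie within 7.24 kb, the Lta probe at chr17:35340275-35340334. Their mean differences were -0.26, -0.38 and -0.64, and Lta alone had an unadjusted p under 0.05. For Ltb and Tnf the groups overlapped, and without WT replicate 2 their differences were 0.054 and -0.11. On chromosome 4, Tnfsf15 and Tnfsf8 lie within 106 kb and had differences of 0.86 and 0.50, the second resting on KO replicate 1 as above. Also on chromosome 4, Tnfrsf8 at 0.87 and Tnfrsf1b at -0.22 lie within 80.3 kb, and Tnfrsf4 and Tnfrsf18 within 12.4 kb at 0.23 and 0.12. The Tnfsf10 probe is at chr3:27238508-27238567. Exon and UTR annotation on mm9 was not used here.

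Promoters of 30 members were in RefSeq's table on GRCm38.p6, which gives the bases just before and after each gene's start. An NF-kappaB consensus was found in 3 of them (Ltb, Tnfrsf8 and Tnfrsf9), which is 10% against 5.14% of all 27025 genes in the table. The AP-1 motif TGANTCA was found in 5 (Fas, Tnfrsf8, Tnfrsf9, Tnfsf13b and Tnfsf14), 16.7% against 8.97%. A motif of the interferon-stimulated response element was found in 4 (Tnfrsf14, Tnfrsf17, Tnfrsf1b and Tnfsf13b), 13.3% against 3.99%. Both strands were searched, and a match is a description and not a binding site. The promoters of the receptor and the ligand with the largest differences, and of Tnfrsf8, which holds the first 2 motifs (in capitals, without overlap), are shown on the gene's strand. They lie at chr6:125313836-125314135 (minus strand, Ltbr), chr3:27316827-27317126 (plus strand, Tnfsf10) and chr4:145315115-145315414 (minus strand, Tnfrsf8), all on GRCm38.p6.
Ltbr promoter: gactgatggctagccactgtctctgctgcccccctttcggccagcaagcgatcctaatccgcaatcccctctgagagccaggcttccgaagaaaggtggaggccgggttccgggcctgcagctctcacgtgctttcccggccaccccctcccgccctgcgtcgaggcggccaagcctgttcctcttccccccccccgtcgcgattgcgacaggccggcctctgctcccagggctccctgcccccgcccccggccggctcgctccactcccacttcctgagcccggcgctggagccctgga
Tnfsf10 promoter: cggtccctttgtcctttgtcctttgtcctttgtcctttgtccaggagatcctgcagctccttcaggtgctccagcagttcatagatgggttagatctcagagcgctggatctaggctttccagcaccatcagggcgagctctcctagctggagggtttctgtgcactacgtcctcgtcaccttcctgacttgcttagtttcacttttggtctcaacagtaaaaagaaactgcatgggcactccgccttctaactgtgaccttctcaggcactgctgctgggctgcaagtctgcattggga
Tnfrsf8 promoter: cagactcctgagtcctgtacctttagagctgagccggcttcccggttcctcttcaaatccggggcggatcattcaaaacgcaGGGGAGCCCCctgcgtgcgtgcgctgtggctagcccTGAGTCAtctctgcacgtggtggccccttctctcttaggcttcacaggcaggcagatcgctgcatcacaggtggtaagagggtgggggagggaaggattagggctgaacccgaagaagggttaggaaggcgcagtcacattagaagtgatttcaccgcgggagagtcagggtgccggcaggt
The windows of Ltbr and Tnfsf10 hold none of the 3 motifs.

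Genes that act below these receptors showed about the background share. Of 40 tested adaptors, kinases, cell death genes and NF-kappaB components, 5 had an unadjusted p under 0.05 (12.5%, against 11.4% of all genes), and 0 passed adjustment. Among those higher were Birc3, an inhibitor of apoptosis that TNF receptors recruit, by 0.48 (unadjusted p of 0.0382) and Tab2, an adaptor of the kinase TAK1, by 0.34 (unadjusted p of 0.0473). Lower were Relb, the transcription factor subunit of the alternative NF-kappaB pathway below Ltbr and Cd40, at -0.48 (unadjusted p of 0.0179), and Map3k5, the kinase ASK1, at -0.47 (unadjusted p of 0.0292). Relb was at 3.27 and 3.21 in KO cells, against 3.64 and 3.80 in WT cells. The list's median was 0.014, beside 0.015 for all genes.

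Several members with higher values are also known from cells other than CD4+ T cells. Ltbr, Cd40, Tnfsf13b and Tnfsf15 are known from myeloid, stromal or B cells, while the cells here were sorted for CD4 and the reporter. Receptor genes of the B cell group went the other way, Tnfrsf13b at -0.97 and Tnfrsf13c at -0.34. The Tnfrsf13b probe lies in a corner block and gave -0.32 with KO array 1 corrected, and the second Tnfrsf13c probe gave 0.24. Of 7 tested macrophage and dendritic cell markers 6 had higher values and 1, Cd74, had an unadjusted p under 0.05, at 0.48 (14.3%, against 11.4% of all genes). Their summed linear signal was 102 to 111 times the 75th percentile in KO cells, against 101 to 106 in WT cells, and H2-Ab1 made up 78.9% to 82.0% of it, so such a sum mostly follows its brightest probe. Of 7 tested B cell markers, 5 had higher and 2 lower values, and 3 had an unadjusted p under 0.05 (42.9%, against 11.4% of all genes). These were Cd79b at 1.16, Cd22 at -0.60 and Ebf1 at -0.97. The sum was 4.48 to 4.94 in KO cells, against 3.05 to 4.01 in WT cells, and Cd79b made up 38.8% to 71.4% of it. The probes of Cd79b and Cd22 each have a spot in a corner block. The B cell marker Ms4a1 (CD20) was not tested, being well above background on 1 array. Markers of CD8, NK and gamma-delta T cells summed to 13.1 to 16.5 in KO cells, against 17.1 to 20.5 in WT cells. Klrd1 made up 80.0% to 89.5% of that sum. Cd8a at 1.30 and Fcer1g at 0.94 were the 2 of 6 at an unadjusted p under 0.05 (33.3%, against 11.4% of all genes). The other 4 were below 0 (Klrd1 at -0.47, Klrk1 and Cd8b1 at -0.13 and Sox13 at -0.08), while the NK marker Ncr1 was well above background on 0 arrays. Treg markers, relevant to Tnfrsf4, Tnfrsf18 and Tnfrsf9, summed to 178 to 244 in KO cells, against 159 to 177 in WT cells. Il2ra, whose groups overlapped, made up 75.5% to 84.7% of that sum. Of the 8 markers 3 were higher with an unadjusted p under 0.05 (37.5%, against 7.19% of all genes), namely Nrp1 at 1.44, Itgae at 1.25 and Ikzf2 at 0.85. The other 5 did not pass, with Foxp3 at 0.22, Il2ra at 0.37, Gpr83 at 0.26, Lrrc32 at 0.06 and Ctla4 at -0.03. Pan T cell markers summed to 730 to 736 in KO cells, against 751 to 802 in WT cells, with 0 of 8 at an unadjusted p under 0.05. All 5 Th17 markers were lower, each with an unadjusted p under 0.05 (100%, against 4.16% of all genes lower at that criterion). They summed to 10.8 to 11.3 in KO cells, against 29.2 to 31.2 in WT cells. The part of these cell types in the differences of the TNF superfamily was not tested.

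**Figure D4:**
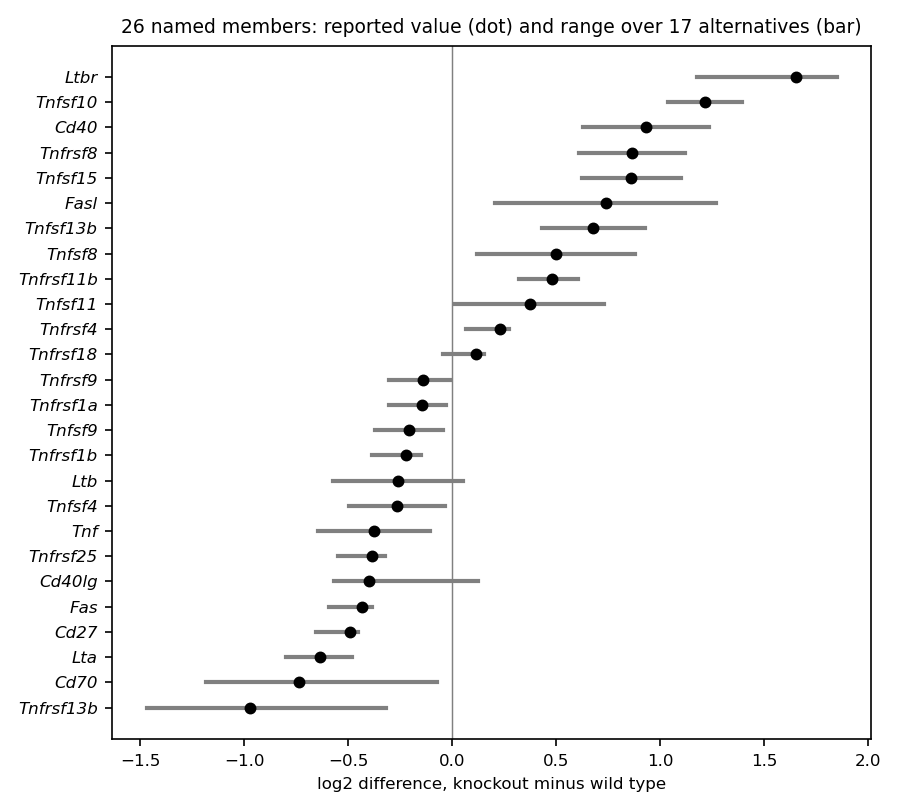
Reported log2 difference, KO minus WT (dots), and its range over 17 alternative settings (bars) for the 26 members given in full, without Tnfsf14. The bars of Ltbr (1.18 to 1.85) and Tnfsf10 (1.03 to 1.39) stay far above 0, and those of Cd40lg, Ltb and Tnfrsf18 cross it.

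Under the alternative settings, Ltbr and Tnfsf10 kept an unadjusted p under 0.05 in 17 of 17, and Cd40, Tnfsf15 and Tnfrsf8 in 16. The number was 15 for Cd27, 14 for Lta, 12 for Fas, 11 for Tnfrsf25 and for Tnfsf13b, 9 for Tnfrsf11b and 8 for Cd40lg. Of 10 members with several tested probes, 5 had probes of 1 sign, among them Cd27 and Tnfrsf13b, and 5 had probes of both signs, where the brightest probe gave -0.34 to 0.14. In Tnfrsf14, the gene of the LIGHT receptor HVEM, the brightest probe gave 0.059 and the other -0.35 (limma unadjusted p of 0.0420). That other probe was at -1.37 and -1.45 in KO cells, against -1.01 and -1.10 in WT cells. The groups did not overlap on either probe, so the probes separated them in opposite directions.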

How the data were processed

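Each array was scanned in 1 colour and read with Agilent Feature Extraction in version 10.5.1.1, as the file headers state. The processed signal used here is a linear intensity that the authors deposited, with the background subtracted and spatial trends removed, per the file headers. On KO array 1 the removal of the trend was missing at nearly all spots, as given below. The deposited files also hold the fitted detrending surface as a ratio at each spot. A matrix of log2 values that the authors deposited equals log2 of the processed signal plus 1 constant per array, within 0.001 for 100% of probes, and all its columns have a median of 5.54. Probe positions are on mm9, per the file headers, and genes carry the names in the files.

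Control and outlier spots were dropped, spots of a probe averaged, and log2 signals shifted by the array's 75th percentile over non-control probes. The probe with the highest mean stood for its gene. KO was compared with WT by lmFit and eBayes of limma 3.58.1 (R 4.3.3), with Benjamini-Hochberg adjustment over 19776 genes. The procedure was run on simulated data with a common SD for all genes. That run checked only that planted differences were recovered on average, and not how the p-values behave on these arrays. Detrending had been applied at 0.799% of the spots well above background on KO array 1 and at 100% on the other 3, and the SD of the surface was 0.157 on it, against 0.0498 to 0.0557. The median processed signal was 45.6 to 57.6 per array, and precision is limited by how few arrays there are. All arrays were on 1 slide, so no slide term was fitted. Genes given in full were those with an unadjusted p under 0.05 or a difference of at least 0.5, and 21 fixed T cell members. One gene of the signalling list is counted there but not reported by name here. The members, lists and rules were chosen with earlier results of these data known. Alternatives covered scaling, background correction, dim probes, probe summary, variance trend, the surface, the corner blocks, a replicate block and leaving out each array.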

Additional observations from a re-analysis of the deposited data

How the results depend on the processing

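Of the 27 members given in full, 23 kept their direction under all 17 alternatives. Not every alternative could turn a sign. The replicate block, the intensity trend and the fit with each probe as its own row leave these differences unchanged. The authors' matrix repeats median scaling, so the alternatives are not independent checks. With median scaling, and with the authors' matrix, which is scaled the same way, the median of all genes was -0.15 and that of the members -0.12, Tnfrsf18 turned to -0.046 and Tnfsf14 to -0.16. Quantile normalization gave -0.011 for Tnfsf14, and normexp gave 0.12 for Cd40lg, both reversed. The median of the members was 0.065 with the percentile over tested probes, 0.082 with normexp, 0.0022 with the mean of all probes, -0.034 with KO array 1 corrected and 0.012 with the corner blocks left out. Leaving out each array in turn gave -0.047 to 0.054 for that median, -0.57 to 0.054 for Ltb and -2.44 to 2.45 for Tnfsf14. It gave 6 to 10 members at an unadjusted p under 0.05, 6 without WT replicate 2 and 6 without KO replicate 1, against 12 reported. All genes at that criterion were 1459 to 2273, against 2245, with 1459 without WT replicate 1, and 4325 with normexp. Genes past the adjusted threshold were 0 to 27, the 27 without WT replicate 1, none of them a member. The count in the signalling list was 2 without a filter on dim probes and with the mean of probes, 3 with KO array 1 corrected, 0 with the replicate block and 0 to 3 with an array left out, against 5. The cause was not tested. Arrays of the same replicate number did not deviate together (r = 0.0028 across genes), so the numbers were not treated as pairs. The replicate block gave 9 of 37 members at an unadjusted p under 0.05, 7 higher and 2 lower, beside 8.83% of all genes. Signal near background limits Cd40lg, Cd70, Tnfrsf19 and Tnfrsf11b.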

Other observations

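Members of the superfamily, and genes tied to them, that the name rule does not take were also looked up. Ngfr, the nerve growth factor receptor that shares the fold of the TNF receptors, was at -2.97 and -3.22 in KO cells, against -3.84 and -3.22 in WT cells, a difference of 0.43 with an unadjusted p of 0.168. Relt, an orphan receptor of lymphoid cells, had a difference of -0.047 with an unadjusted p of 0.734. The ectodysplasin genes Eda, Edar, Eda2r and Edaradd were too dim to be tested.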
